A study of Mus musculus with 60 samples.

Results

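Astrocytes are the glial cells that tile the cortex, take up potassium and transmitters from the space around synapses, supply neurons with lactate from glycogen, and wrap blood vessels with end-feet rich in water channels. They are joined into a network by gap junctions, and in injury or inflammation many of them raise cytoskeletal and acute-phase genes. Described here are 33 genes taken as astrocyte genes, though not all need be particular to these cells. They were listed by name, with earlier results of these data known. All 33 were present among the 18088 genes of the deposited table, and all 33 were among the 17807 genes that reached a value of 10 in at least 5 libraries and were tested.

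Messenger RNA was sequenced from the prefrontal cortex of 60 C57BL/6J mice at postnatal day 25. The mice were wild type (WT) or carried 1 N2373K allele of Chd8, a chromatin remodeller gene linked to autism (Chd8+/N2373K, called Het below), and were of both sexes. From day 3 to day 24 they received fluoxetine, a serotonin reuptake inhibitor, lithium, a mood stabiliser, or vehicle through the mother's milk, so that each of the 12 groups of genotype, treatment and sex held 5 libraries. The labels used here state neither dose nor litter. P-values therefore measure only the spread between these libraries, and mice of a shared mother cannot be told apart from mice of different mothers.

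The deposited values are read counts divided by 1 size factor per library, called normalized counts below, and the libraries held 24.1 to 31.6 M reads. Chd8 itself ran from 2421 to 3072 normalized counts in the 30 Het libraries, with a median of 2670, and from 2951 to 3285 in the 30 WT libraries, with a median of 3090. The overlap came from 1 library, Het fluoxetine male replicate 5, at 3072. The 33 genes took 0.593% to 0.818% of the reads of a library. Every marker list used here for other cells of the cortex or its surroundings was detected. The 16 olfactory bulb markers summed to between 7117 and 52351 normalized counts in single libraries. Across libraries 3 members were positively related to these markers (Fabp7, Slc4a4 and Gfap) and 5 negatively, as given below. In such whole tissue, a change in the number of astrocytes, in RNA per astrocyte or in RNA from other cells cannot be told apart.

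Per kilobase of exon, the highest levels belonged to the secreted and processing proteins Cpe, the carboxypeptidase that trims neuropeptides, at 23718 normalized counts per kilobase, Sparcl1, a matricellular protein of synapses, at 15199, and Clu, a secreted chaperone, at 4565, together with the glycolytic enzyme Aldoc at 5757. The lowest were the urea transporter Slc14a1 at 61.4, the glycogen-targeting subunit Ppp1r3g at 81.7 and the hyaluronan-binding inhibitor chain Itih3 at 109. On the scale of normalized counts, 9 of the 33 genes lay in the top 10% of genes by mean.

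Promoter sequence is shown for Serpina3n and Slc7a11, since both were called with each drug and moved in opposite directions. The windows are the 250 bases before each gene's start in RefSeq, build GRCm38.p6, read 5′ to 3′ on the gene's strand. Serpina3n lies on the plus strand with its window at chr12:104406458-104406707. Slc7a11 lies on the minus strand with its window at chr3:50443614-50443863. Capitals mark the letters AGAACA on either strand, the core of a glucocorticoid response element, and in Slc7a11 also TTCNNNGAA, the core of a STAT site, which overlaps the reverse-strand match there.
Serpina3n: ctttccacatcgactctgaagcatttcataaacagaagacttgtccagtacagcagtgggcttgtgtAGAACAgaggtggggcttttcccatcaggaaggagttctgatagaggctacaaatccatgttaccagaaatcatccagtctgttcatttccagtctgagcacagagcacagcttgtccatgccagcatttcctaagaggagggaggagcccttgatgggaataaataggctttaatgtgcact
Slc7a11: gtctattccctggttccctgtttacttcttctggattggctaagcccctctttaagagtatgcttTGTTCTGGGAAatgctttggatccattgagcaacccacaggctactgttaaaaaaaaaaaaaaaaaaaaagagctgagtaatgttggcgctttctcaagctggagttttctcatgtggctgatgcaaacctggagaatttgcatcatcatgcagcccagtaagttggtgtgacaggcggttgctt

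Of the 25 members with an entry in that RefSeq table, AGAACA on either strand occurred in 4, Hepacam, Plpp3, Serpina3n and Slc7a11, against 16% of the 32536 distinct windows of all genes. TTCNNNGAA occurred in Acsbg1, Aldoc, Ntsr2 and Slc7a11, against 7.04% of windows. The full palindromic site of nuclear factor I, a family of factors that drives astrocyte genes, occurred in 0 of the 25 and in 0.0369% of windows. These are counts of letters in a short window and say nothing of binding.

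Genotype moved few of the 33 genes. Over all treatments and both sexes, 1 member was called at an adjusted p under 0.05 (limma, Benjamini-Hochberg over 17807 genes), where 1.54% of all genes tested were called. The members' median log2 fold change, Het against WT, was -0.01, beside 0.00 for all genes. The called gene was Ppp1r3g, which brings protein phosphatase 1 to glycogen. Its values ran from 142 to 279 normalized counts in the 30 Het libraries, with a median of 201, and from 147 to 290 in the 30 WT libraries, with a median of 240. Het libraries were thus lower on the whole, 24 of 30 below the WT mean, within a wide overlap. The log2 fold change was -0.23 ± 0.06 (SE; adjusted p = 0.043), and leaving out any 1 of 37 of the 60 libraries ended the call, with adjusted p up to 0.070.

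In vehicle mice alone, 0 members were called by genotype in males, where 0.0168% of genes were called, and 0 in females, where the share was 0.0225%. At an unadjusted p under 0.05 (limma) there were 3 members in males (Sox9, Fabp7 and Ppp1r3g), beside 1463 of all 17807 genes. There was 1 in females (Fgfr3), beside 1149 of all genes. On the recovered reads edgeR and DESeq2 also called 0 in each sex. Fabp7, a fatty-acid binding protein of radial glia and young astrocytes, stood at 755, 1572, 2667, 3472 and 5853 normalized counts in the Het vehicle males and at 751, 754, 848, 873 and 1603 in the WT vehicle males, a log2 difference of 1.32 ± 0.60 (adjusted p = 0.58). The sum of the 16 olfactory bulb markers had a median of 21938 in those Het males, with a range of 8122 to 52351. Sex called 0 of the 33 genes over all groups by limma, edgeR and DESeq2, where 0.140% of genes were called by limma. An unadjusted p under 0.05 was reached by 0 members, beside 646 of 17807 genes.

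With fluoxetine, members were called in both directions, as were genes in general. Over all mice, 4 of the 33 genes rose and 10 fell against vehicle, which is 42.4% of the members beside 33.6% of all genes tested (17.6% higher and 16% lower). The median log2 fold change of the members was -0.04, and that of all genes 0.00. All 5 transporters and pumps fell, 3 of 6 secreted or processing proteins rose, and the junction and end-foot proteins split 1 and 1. Such counts were not made for small groups of other genes. The plot of both drugs shows the 33 members in order of their fluoxetine change.

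**Figure D1:**
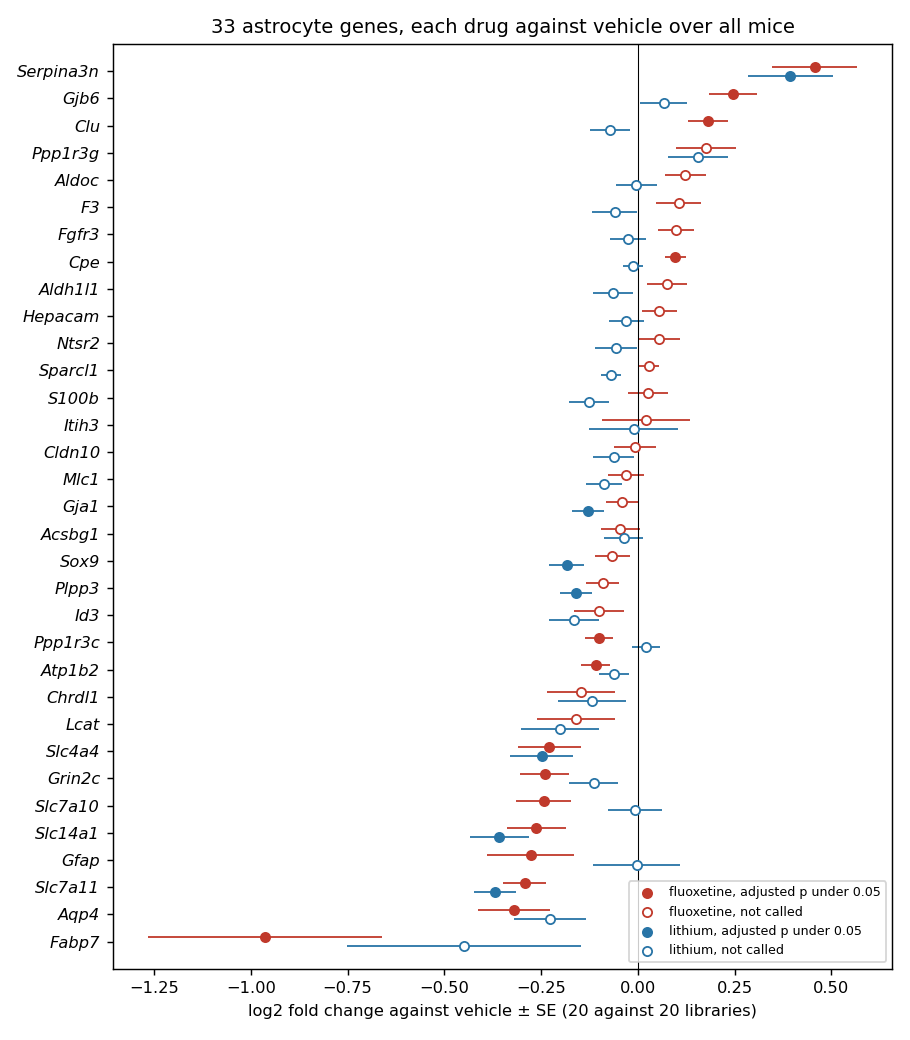
Log2 fold change against vehicle ± SE for each of the 33 genes, 20 against 20 libraries, with fluoxetine in red and lithium in blue, and filled points for adjusted p under 0.05. Fabp7 lies farthest to the left with fluoxetine at -0.96, and Serpina3n farthest to the right with both drugs, at 0.46 and 0.39.

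Among the transporters, the clearest fall was that of Slc7a11 (chromosome 3, 49892526 to 50443614, minus strand, GRCm38), the light chain of the cystine-glutamate exchanger that supplies cystine for glutathione. Its level ran from 1773 to 2846 normalized counts in the 20 vehicle libraries, with a median of 2214, and from 1377 to 2213 in the 20 fluoxetine libraries, with a median of 1836. All 20 fluoxetine libraries lay below the vehicle mean of 2274, although the ranges overlapped. The log2 fold change was -0.29 ± 0.05 (SE; adjusted p = 3.6e-05), a fall of 18% of the level, and the direction was the same in both sexes and both genotypes. Slc7a11 also followed leptomeningeal markers from library to library (r = 0.73, given below), whose summed median was 6919 normalized counts with vehicle and 6024 with fluoxetine. With the scores of these and 2 other tissues as covariates its change was -0.22 (adjusted p = 4e-05). With the score of glucocorticoid-induced genes it was -0.16 (0.13), which ended the call. Slc14a1, which carries urea, ran from 214 to 361 with vehicle (median 278) and from 176 to 329 with fluoxetine (median 225), a log2 change of -0.26 ± 0.08 (adjusted p = 0.0062).

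The other transporters and the pump subunit fell too, Atp1b2 by the smallest step. Slc7a10, which exchanges serine and glycine, changed by -0.24 ± 0.07 (adjusted p = 0.0058), with 15 of 20 fluoxetine libraries below the vehicle mean of 645 normalized counts. Its vehicle libraries were tight, from 573 to 748, and its fluoxetine libraries wide, from 339 to 751. Slc4a4, the sodium-bicarbonate cotransporter, changed by -0.23 ± 0.08 (adjusted p = 0.025), and Atp1b2, the astrocytic beta subunit of the sodium pump, by -0.11 ± 0.04 (adjusted p = 0.023). The call for Slc4a4 ended without Het fluoxetine male replicate 3 (adjusted p = 0.051), and that for Atp1b2 without Het vehicle female replicate 3 (0.051) or WT fluoxetine male replicate 5 (0.052). Slc4a4 also followed the olfactory bulb markers across libraries (r = 0.54, given below), and with their score as a covariate its change was -0.16 (adjusted p = 0.081). It was -0.19 (0.16) without the 16 libraries of highest score and -0.12 (0.17) with the oligodendrocyte, choroid plexus and leptomeningeal scores as covariates.

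In the junction and end-foot group, Gjb6 rose and Aqp4 fell. Gjb6 (chromosome 14, 57123303 to 57133611, minus strand) encodes connexin 30, a gap-junction channel between astrocytes. It ran from 1211 to 2012 normalized counts with vehicle (median 1493) and from 1446 to 2186 with fluoxetine (median 1726). Of the 20 fluoxetine libraries, 19 lay above the vehicle mean, and the log2 fold change was 0.25 ± 0.06 (adjusted p = 0.0014). Aqp4, the water channel of end-feet, ran from 3639 to 5856 with vehicle (median 4272) and from 2260 to 5115 with fluoxetine (median 3747). Its log2 change was -0.32 ± 0.09 (adjusted p = 0.0057), with 15 of 20 libraries below the vehicle mean. Gja1, the other main astrocytic connexin, had a log2 change of -0.04, and Mlc1, Hepacam and Cldn10, which form or sit beside the end-foot membrane complex, were not called either.

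The secreted group held most of the genes that rose. Serpina3n (chromosome 12, 104406729 to 104414329, plus strand), a serine protease inhibitor used as a marker of reactive astrocytes, ran from 139 to 306 normalized counts with vehicle (median 183) and from 152 to 449 with fluoxetine (median 224). Of the 20 fluoxetine libraries 17 lay above the vehicle mean, and the ranges overlapped. The log2 fold change was 0.46 ± 0.11 (adjusted p = 0.00093). Serpina3n belongs to a cluster of closely related genes, among which reads could be shared. Clu rose by 0.18 ± 0.05 (adjusted p = 0.0048), from a vehicle mean of 15279 to 17329. Cpe, the most abundant member, rose by 0.10 ± 0.03 (adjusted p = 0.0032), from 60691 to 64897, with 19 of 20 fluoxetine libraries above the vehicle mean. Sparcl1, Chrdl1 and Itih3 were not called.

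The largest change of all 33 was the fall of Fabp7 (chromosome 10, 57784881 to 57788450, plus strand), which ran from 590 to 5853 normalized counts with vehicle (median 1307) and from 186 to 2071 with fluoxetine (median 902). Its log2 change was -0.96 ± 0.30 (adjusted p = 0.011), with 18 of 20 libraries below the vehicle mean. Fabp7 also had the widest spread within groups of the 33, an SD of 1.0 on the log2 scale. The summed olfactory bulb markers had medians of 12285 normalized counts with vehicle and 9688 with fluoxetine, 15 of the 16 had a negative log2 change, 2 were called (Dcx and Eomes), and 3 (Eomes, Tbx21 and Igfbpl1) were at 0 in at least 1 library. With their score as a covariate the Fabp7 call remained (log2 change -0.63, adjusted p = 0.028), and without the 16 libraries of highest score it was -0.88 (adjusted p = 0.04). The call ended with the oligodendrocyte, choroid plexus and leptomeningeal scores as covariates (-0.66, adjusted p = 0.074), and with the score of glucocorticoid-induced genes, described below, the value was 0.37 (0.48).

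Gfap, the intermediate filament of astrocytes, ran from 2591 to 5923 normalized counts with vehicle (median 3459) and from 1748 to 4412 with fluoxetine (median 3349). The change of -0.28 ± 0.11 was the weakest call (adjusted p = 0.0495), and leaving out any 1 of 24 of the 40 libraries ended it, with adjusted p up to 0.099. It was also not called by edgeR (0.075) or DESeq2 (0.089), without the filter on low values (0.050), with the olfactory bulb score (0.14), with the oligodendrocyte, choroid plexus and leptomeningeal scores (0.37), without the 16 libraries of highest olfactory bulb score (0.11), or with the glucocorticoid score (0.80). The identity markers S100b and Aldh1l1 and the transcription factors Sox9 and Id3 were not called.

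Among receptors, Grin2c, the NMDA receptor subunit found in cortical astrocytes, ran from 1217 to 1638 normalized counts with vehicle (median 1363) and from 840 to 1686 with fluoxetine (median 1228). Its log2 change was -0.24 ± 0.06 (adjusted p = 0.0025). The receptors Fgfr3, Ntsr2 and F3 had positive log2 changes of 0.10, 0.06 and 0.11 and were not called. Of the 6 metabolic genes only Ppp1r3c, another glycogen-targeting subunit, was called, at -0.10 ± 0.04 (adjusted p = 0.025), and Aldoc, Acsbg1, Lcat, Plpp3 and Ppp1r3g were not.

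**Figure D2:**
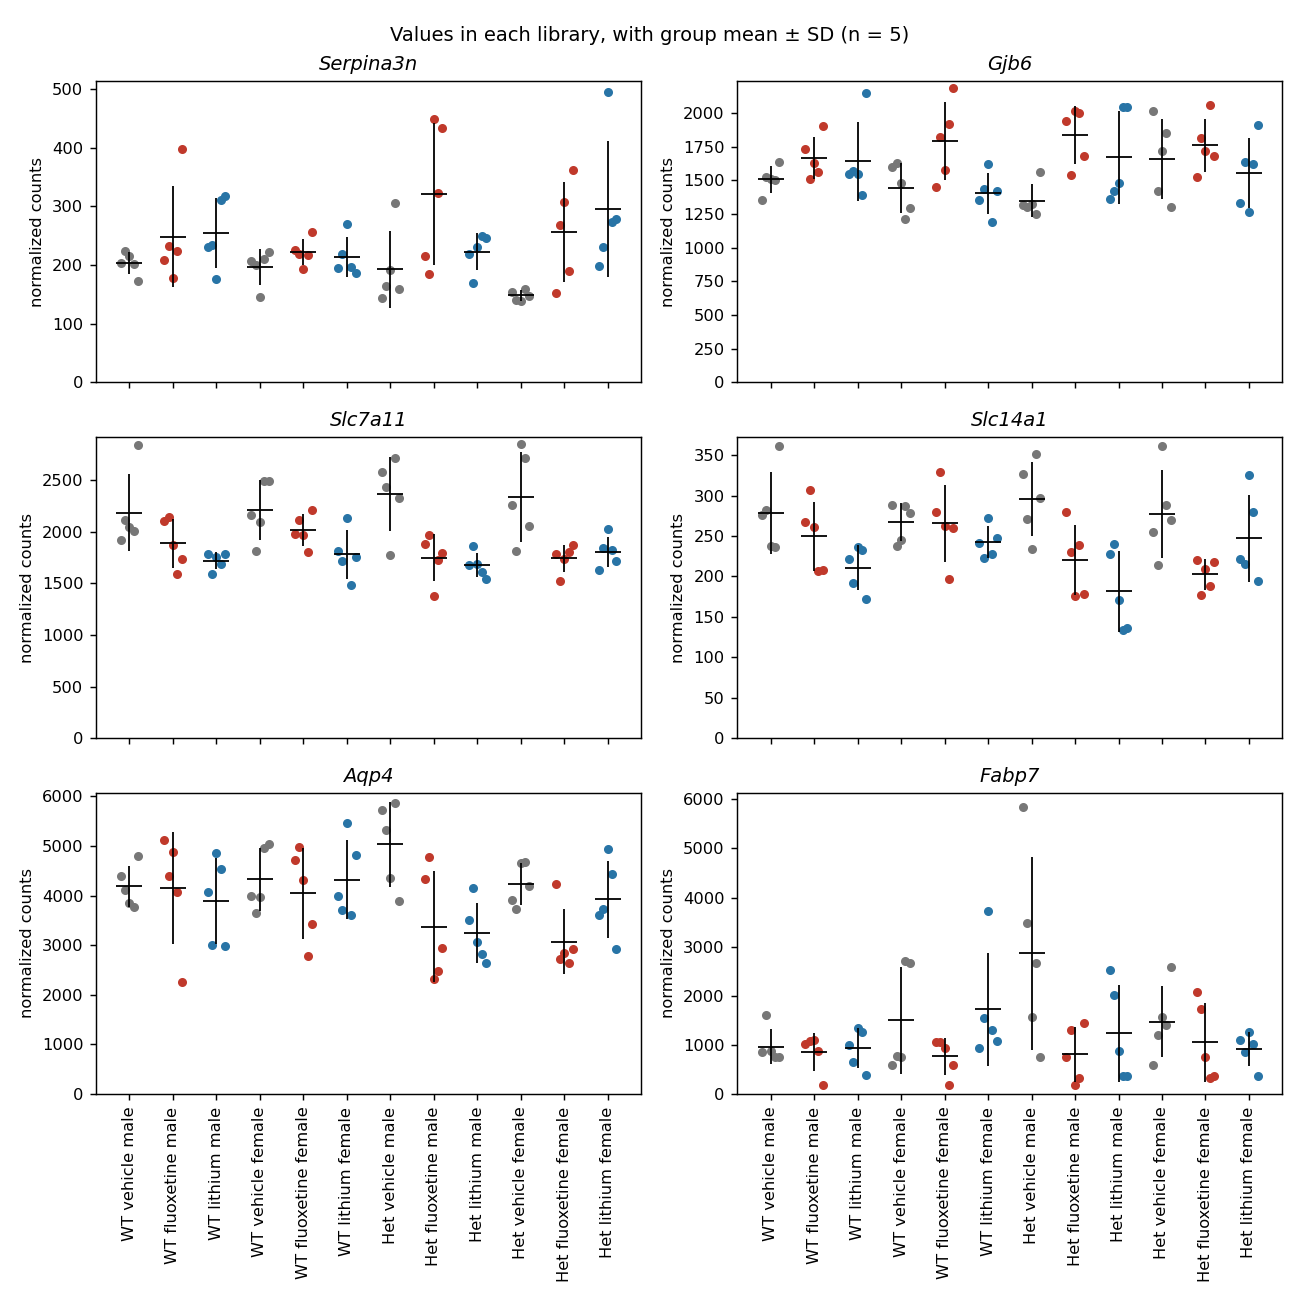
Normalized counts of 6 genes in every library, with grey points for vehicle, red for fluoxetine and blue for lithium, and bars for the group mean ± SD (n = 5). Slc7a11 lies lower with either drug in all 4 combinations of genotype and sex, and the fluoxetine means of Aqp4 lie below the vehicle means in all 4, with the widest gap in Het males, 3371 against 5029.

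Divided by genotype and sex, the fluoxetine calls lay in the Het mice. In WT males 0 members were called (1.34% of genes) and in WT females 0 (2.50%), by limma, edgeR and DESeq2 alike. An unadjusted p under 0.05 was reached by 0 and 2 members, beside 1985 and 3020 of 17807 genes. In Het males 11 members were called, 4 higher and 7 lower, where 22.7% of genes were called (12% higher and 10.7% lower). In Het females 4 were called, 1 higher and 3 lower, where 15.1% were called (7.08% higher and 8.04% lower). The called members made up 33.3% of the list among Het males, and for Het females 12.1%, below the share of all genes. With 1 library left out these counts ran from 2 to 16 and from 0 to 8, the lowest being without Het fluoxetine male replicate 3 and without Het vehicle female replicate 3, and the other libraries are named in the closing section. The vehicle groups also differed in the score of glucocorticoid-induced genes, described below. It was -0.54 to -0.32 in Het vehicle males and -0.18 to 0.02 in WT vehicle males, without overlap. Under fluoxetine it was -0.16 to 0.60 and -0.08 to 0.37. In vehicle females it overlapped, at -0.41 to 0.09 in Het and -0.49 to 0.11 in WT mice. The part of this baseline in the Het calls was not tested.

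The contrast between genotypes in the fluoxetine changes was not itself significant for any member. The test of whether the fluoxetine change differed between Het and WT called 0 of 33, where 1.70% of genes were called. With edgeR or DESeq2 it also called 0. At an unadjusted p under 0.05 (limma) there were 7 of the 33 members, beside 3755 of all 17807 genes, a similar share. The 7 were Grin2c (-0.33 ± 0.13 on the log2 scale, adjusted p = 0.12), Aqp4 (-0.46 ± 0.19, 0.14), Slc7a11, Serpina3n, Slc14a1, Slc7a10 and Chrdl1. In 5 of them the fall was larger in Het than in WT mice, in Serpina3n the rise was, and Chrdl1 was not called with fluoxetine in either. Without WT fluoxetine male replicate 5 this test called 2 members, and without WT fluoxetine female replicate 4 it called 1. In males alone the test called 0 members (0.927% of genes), and 0 by edgeR or DESeq2. There 2 members had an unadjusted p under 0.05, beside 3073 of 17807 genes. No member was called for a difference between the sexes in the fluoxetine change (0% of genes, and 0 members by edgeR or DESeq2). For that difference 0 members had an unadjusted p under 0.05, beside 819 of 17807 genes.

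**Figure D3:**
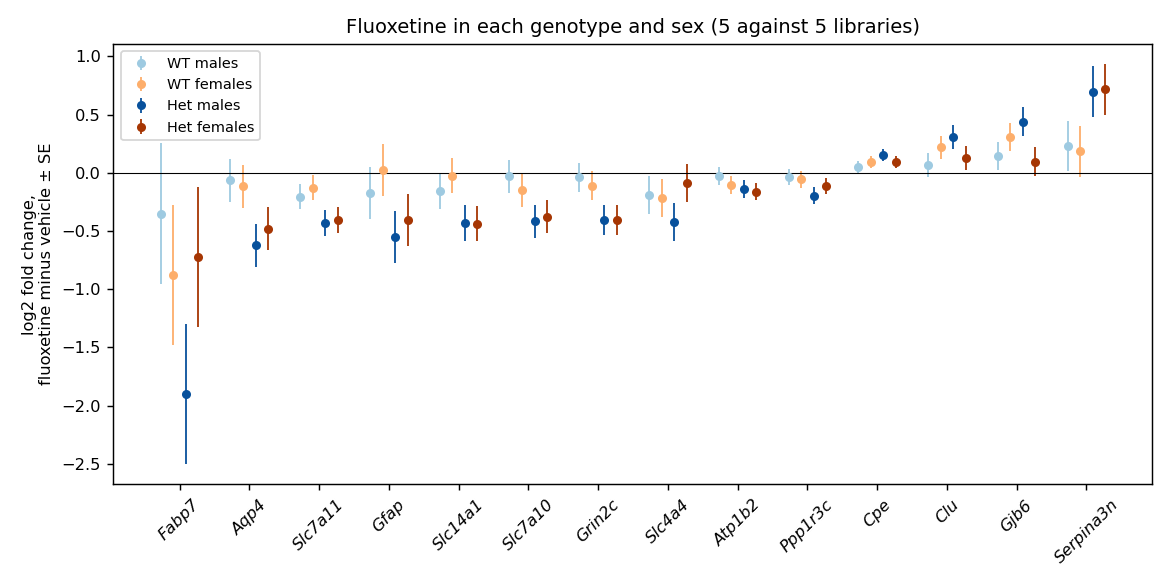
Log2 fold change of fluoxetine against vehicle ± SE in each genotype and sex (5 against 5 libraries) for the 14 genes called over all mice, with WT mice in light and Het mice in dark colours. Of these genes 13 had the same sign in all 4 combinations, and Gfap was the exception, at 0.02 in WT females. The 14 were chosen by the mean of these same 4 changes, so a shared sign follows in part from the choice. How many of all called genes did likewise was not counted.

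In Het males, Grin2c was the called gene whose groups did not overlap, though how many of all genes did likewise was not counted. It stood at 932, 1022, 1134, 1235 and 1286 normalized counts under fluoxetine and at 1377, 1448, 1478, 1495 and 1594 under vehicle. The log2 change was -0.41 ± 0.13 (adjusted p = 0.016), and without Het fluoxetine male replicate 3 the adjusted p was 0.076. Slc7a11 in the same mice stood at 1377, 1722, 1792, 1882 and 1970 under fluoxetine and at 1773, 2329, 2432, 2577 and 2709 under vehicle. All but 1 vehicle library lay above every fluoxetine library. The change was -0.43 ± 0.11 (adjusted p = 0.0036) and held without any 1 library.

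Gjb6 in Het males rose from 1246, 1302, 1315, 1324 and 1560 under vehicle to 1539, 1681, 1939, 2002 and 2016 under fluoxetine. The groups overlapped by 1 library each, the log2 change was 0.44 ± 0.12 (adjusted p = 0.0075), and no single library decided the call. Aqp4 stood at 3895, 4353, 5319, 5720 and 5856 under vehicle and at 2316, 2488, 2944, 4332 and 4774 under fluoxetine. Of the fluoxetine libraries 3 lay below every vehicle library, and the change was -0.62 ± 0.19 (adjusted p = 0.013). That call ended without Het fluoxetine male replicate 3 (0.073) or replicate 4 (0.051).

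Serpina3n and Fabp7 were the most uneven of the genes called in Het males. Serpina3n stood at 144, 159, 164, 192 and 306 under vehicle and at 184, 215, 322, 435 and 449 under fluoxetine, a log2 change of 0.70 ± 0.22 (adjusted p = 0.017). The call ended without Het fluoxetine male replicate 3 (0.095) or replicate 5 (0.063), or without Het vehicle male replicate 1 (0.063). Fabp7 stood at 186, 331, 760, 1296 and 1448 under fluoxetine, against the 5 vehicle values given above, a log2 change of -1.90 ± 0.60 (adjusted p = 0.019). That call ended without Het fluoxetine male replicate 3 (0.11) or replicate 4 (0.060). It also ended without Het vehicle male replicate 1 (0.081) or replicate 2 (0.052). Other fits ended the Fabp7 call too: only the groups compared, the oligodendrocyte, choroid plexus and leptomeningeal scores, and the glucocorticoid score. Leaving out the 16 libraries of highest olfactory bulb score ended it as well, but it held with that score as a covariate. The summed bulb markers had medians of 21938 normalized counts in Het vehicle males and 9190 in Het fluoxetine males. Their ranges overlapped, at 8122 to 52351 and 7117 to 27610.5. The remaining calls in Het males were Clu, Slc7a10, Cpe, Slc14a1 and Ppp1r3c, each of which ended without any of 4 to 6 of the 10 libraries. Without Het fluoxetine male replicate 3 the count of members called was 2 in place of 11. That library had the highest score of glucocorticoid-induced genes of all libraries, 0.60, the next being 0.43 in Het fluoxetine female replicate 4. Its score of microglia markers was the lowest of all libraries, -0.74, the next being -0.39 in Het lithium male replicate 5. Most of the Het male calls thus depended on a library at the edge of these scores. The part of these scores in the calls was not tested.

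In Het females Slc7a11 again had the smallest adjusted p, with 1522, 1731, 1781, 1802 and 1868 normalized counts under fluoxetine and 1809, 2051, 2262, 2712 and 2846 under vehicle. The log2 change was -0.41 ± 0.11 (adjusted p = 0.0085), and 0.059 without Het vehicle female replicate 3. Serpina3n was tight under vehicle, at 139, 140, 148, 155 and 159, and spread out under fluoxetine, at 152, 191, 268, 307 and 362. Its log2 change was 0.72 ± 0.22 (adjusted p = 0.021). The call ended without Het fluoxetine female replicate 2 (0.050), 3 (0.065) or 5 (0.088), or Het vehicle female replicate 3 (0.057). Grin2c (-0.40 ± 0.13, adjusted p = 0.024) and Slc14a1 (-0.44 ± 0.15, 0.044) completed the list, and leaving out 6 and 8 of the 10 libraries in turn ended those calls. Without Het vehicle female replicate 3, 0 of the 4 calls were left.

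With lithium, 6 of the 33 genes fell and 1 rose over all mice, which is 21.2% of the members beside 19.1% of all genes (10.3% higher and 8.79% lower). The log2 change was positive in 4 members and negative in 29, where 48.3% of all genes had a positive one, and the median was -0.06, beside 0.00 for all genes. These 20 vehicle libraries are the same ones that fluoxetine was compared with, so the drug comparisons are not independent of each other.

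Slc7a11 fell most clearly, from the vehicle range given above to between 1482 and 2133 normalized counts (median 1736). All 20 lithium libraries lay below the vehicle mean, and the log2 change was -0.37 ± 0.05 (adjusted p = 2.9e-06). Slc14a1 ran from 134 to 325 (median 225) with lithium, a change of -0.36 ± 0.08 (adjusted p = 0.00066). Sox9, the transcription factor that specifies astrocytes, ran from 385 to 621 with vehicle (median 484) and from 366 to 491 with lithium (median 418). The change was -0.18 ± 0.05 (adjusted p = 0.0028), with 18 of 20 lithium libraries below the vehicle mean. Plpp3, a lipid phosphatase, fell by 0.16 ± 0.04 on the log2 scale (adjusted p = 0.0054), Slc4a4 by 0.25 ± 0.08 (0.026) and Gja1 by 0.13 ± 0.04 (0.024). Leaving out any 1 library ended none of these 6 calls, but other fits did. With the oligodendrocyte, choroid plexus and leptomeningeal scores as covariates the values were -0.07 for Plpp3 (adjusted p = 0.19), -0.09 for Slc4a4 (0.43) and -0.03 for Gja1 (0.59), and with the glucocorticoid score the adjusted p were 0.074, 0.44 and 0.086. Slc4a4 was also lost with the olfactory bulb score (-0.18, adjusted p = 0.060), and Slc4a4 (0.31) and Gja1 (0.051) without the 16 libraries of highest score. Slc7a11, Slc14a1 and Sox9 remained called in each of these fits.

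The 1 member that rose with lithium was Serpina3n, which ran from 170 to 495 normalized counts (median 231). The log2 change was 0.39 ± 0.11 (adjusted p = 0.0080), with 18 of 20 lithium libraries above the vehicle mean. With the oligodendrocyte, choroid plexus and leptomeningeal scores it was 0.31 (adjusted p = 0.065), and with the glucocorticoid score 0.26 (0.11). Gfap had a log2 change of 0.00 with lithium and Fabp7 one of -0.45 ± 0.30 (adjusted p = 0.31). Lithium libraries also had lower leptomeningeal markers, with summed medians of 5880 normalized counts against 6919 with vehicle, negative log2 changes in 8 of 8 and 2 called (Igf2 and Slc13a4). None of the 8 was at 0 in any library.

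Within genotype and sex, lithium called 0 members in WT males (0.0786% of genes) and 0 in WT females (0.118%), and 0 by edgeR or DESeq2. In each, 2 members had an unadjusted p under 0.05, beside 1619 of 17807 genes in males and 2010 in females. In Het males it called 2, both lower (2.0% of genes). Slc14a1 there stood at 134, 136, 171, 228 and 240 normalized counts, against 234, 271, 298, 327 and 351 with vehicle, a log2 change of -0.73 ± 0.15 (adjusted p = 0.0060). Slc7a11 stood at 1541, 1613, 1679, 1689 and 1858, below all but the lowest vehicle library, at -0.48 ± 0.11 (adjusted p = 0.012). The second call ended without Het vehicle male replicate 1 (0.057) or replicate 4 (0.065).

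In Het females the 1 call was Serpina3n (0.629% of genes), and there the groups did not overlap, which was not counted for all genes. Its values were 199, 231, 274, 278 and 495 normalized counts with lithium and 139 to 159 with vehicle, a log2 change of 0.92 ± 0.22 (adjusted p = 0.030). The call ended without Het lithium female replicate 3, the library at 495 (0.71 on the log2 scale, adjusted p = 0.11), or without Het vehicle female replicate 1 (0.057), 3 (0.11) or 4 (0.065). The lithium change was not called as different between genotypes or between sexes for any member, with 0% of genes called in each. Members called by edgeR and DESeq2 were 0 as well. An unadjusted p under 0.05 was reached by 1 and 4 members, beside 615 and 980 of 17807 genes. The genotype difference likewise did not differ by sex in any member (0% of genes, and 0 members by edgeR or DESeq2). There 0 members had an unadjusted p under 0.05, beside 452 of 17807 genes.

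Set directly against each other, fluoxetine libraries were higher than lithium libraries in 9 members and lower in 2, beside 28.9% of all genes called (14.6% higher and 14.3% lower). Clu differed most clearly, from 12514 to 21763 normalized counts with fluoxetine (median 17542) and from 12232 to 16185 with lithium (median 14430). The difference was 0.25 ± 0.05 on the log2 scale (adjusted p = 0.00013), and 19 of 20 fluoxetine libraries lay above the lithium mean. Cpe (0.11 ± 0.03, adjusted p = 0.00098), Sparcl1 (0.10 ± 0.03, 0.0040), S100b (0.15 ± 0.05, 0.021) and Gjb6 (0.18 ± 0.06, 0.021) were higher with fluoxetine, and Ppp1r3c (-0.12 ± 0.04, 0.0079) and Slc7a10 (-0.24 ± 0.07, 0.0086) lower. F3, Aldh1l1, Fgfr3 and Sox9 were also called, at adjusted p of 0.027 to 0.042, and those calls ended without any 1 of 1, 9, 17 and 20 of the 40 libraries.

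In all, 10 of the 33 genes were called in none of these comparisons: Acsbg1, Aldoc, Chrdl1, Cldn10, Hepacam, Id3, Itih3, Lcat, Mlc1 and Ntsr2. Mlc1 and Acsbg1, an acyl-CoA synthetase, were also the members closest to the rest. After the group means were removed, the r of each with the median of the other 32 over the 60 libraries was 0.95 and 0.90, followed by Plpp3 at 0.82. The least alike were Serpina3n (-0.24), Itih3 (-0.12) and Gjb6 (0.20). Of the 528 pairs of members 439 had an r above 0 and 213 above 0.5, with a median of 0.41, and the highest was Mlc1 with Acsbg1 at 0.89. The lowest was Fabp7 with Gjb6 at -0.66. These are descriptions over libraries that share a size factor within each library.

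Other genes of the same cells were read from lists named from textbook knowledge, but with earlier results of these data known. Of 50 other astrocyte genes, 9 rose and 11 fell with fluoxetine, 0 rose and 6 fell with lithium, and 2 were called by genotype, beside the shares of all genes given above. With fluoxetine the smallest adjusted p values belonged to Mertk, a phagocytic receptor (0.27 ± 0.05, 3.4e-05), Kcnj10, the potassium channel that buffers extracellular potassium (-0.31 ± 0.07, 0.00054), Htra1, a secreted protease (0.22 ± 0.05, 0.00076), and Lfng, a modifier of Notch (0.27 ± 0.07, 0.0020). With lithium they belonged to Ptprz1 (-0.16 ± 0.05, adjusted p = 0.0088), Phkg1 (-0.20 ± 0.06, 0.011), the glutamate transporter Slc1a3 (-0.12 ± 0.04, 0.026) and the zinc transporter Slc39a12 (-0.12 ± 0.04, 0.033). By genotype Nfia, a factor that starts astrocyte formation, was lower in Het mice (-0.20 ± 0.05, adjusted p = 0.018), and Agt, angiotensinogen, higher (0.69 ± 0.17, 0.022).

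Of 31 tested genes of reactive astrocytes, 3 rose and 6 fell with fluoxetine, and 3 rose and 2 fell with lithium, which is 29% and 16% of the list beside 33.6% and 19.1% of all genes. Fkbp5, a chaperone induced by glucocorticoids and so also on the list described next, rose by 0.76 ± 0.09 on the log2 scale with fluoxetine (adjusted p = 8.9e-10) and by 0.45 ± 0.09 with lithium (0.00015). Nes, a filament of progenitors and reactive cells, fell with fluoxetine (-0.66 ± 0.09, adjusted p = 3e-08), and so did the matrix protein Tnc (-0.54 ± 0.13, 0.00091). Lcn2, a secreted lipocalin, rose with both drugs (1.29 ± 0.22, 1.1e-05, and 0.87 ± 0.22, 0.0041) from a vehicle mean of only 6.52 normalized counts.

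Of 17 genes known to be induced by glucocorticoids, 14 rose and 0 fell with fluoxetine over all mice, where 17.6% of all genes were called higher, and their median log2 change was 0.34. With lithium 11 rose and 0 fell, where 10.3% of all genes were called higher, with a median of 0.22. Their summed level ran from 11706 to 16724 normalized counts with vehicle (median 14197), from 14222 to 21375 with fluoxetine (median 17369) and from 13334 to 19258 with lithium (median 15232), and none was at 0 in any library. This list too was chosen with earlier results of these data known. Several members followed it from library to library inside the groups. To show this, the score of a list was taken as the mean of its genes' centred log2 values, group means were subtracted, and r was computed over the 60 libraries for 33 members and 4 scores, 132 relations in all, with 100000 permutations within groups and Benjamini-Hochberg adjustment.

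Gjb6 followed the glucocorticoid score most closely (r = 0.80 and rho = 0.77, each p = 1e-05, the smallest these permutations can give, adjusted p = 0.00011 and 0.00013), and r was 0.78 without the 2 libraries farthest from the median score. Aqp4 ran the opposite way (r = -0.69 and rho = -0.69, each p = 1e-05, adjusted p = 0.00011 and 0.00013; r = -0.65 without those 2), as did Fabp7 (r = -0.67, rho = -0.62, with the same p values; -0.64 without those 2). In all 10 members had a positive and 11 a negative relation with this score at an adjusted p under 0.05. Among them were Itih3 (0.60) and Hepacam (0.60) on the positive side and Slc14a1 (-0.58) on the negative. The share of all genes with such a relation is not given here. These counts therefore cannot tell a trait of the members from one of genes in general.

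**Figure D4:**
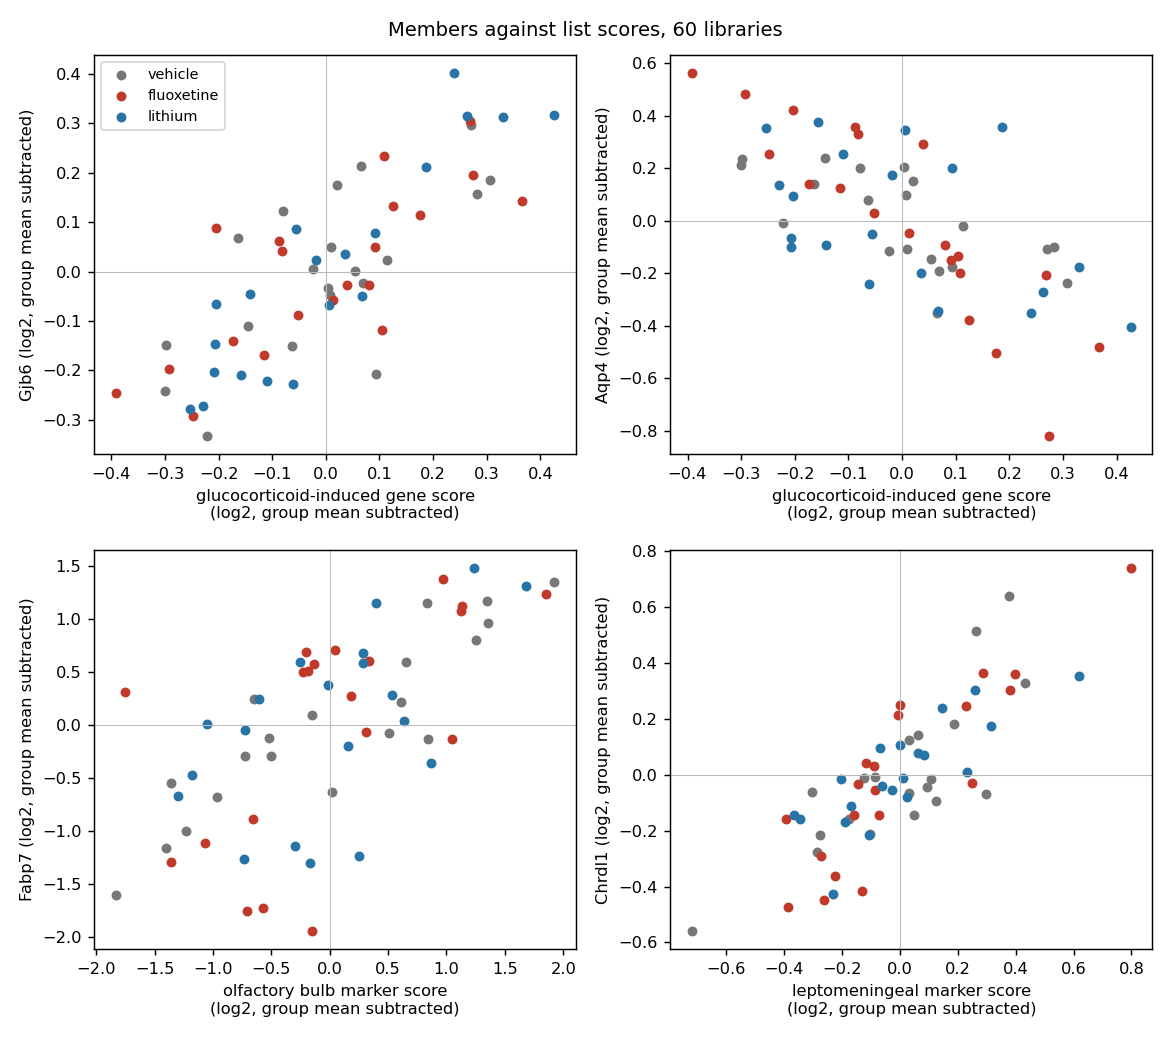
Log2 level of a member against a list score in 60 libraries, each with its group mean subtracted, for Gjb6 and Aqp4 against the glucocorticoid-induced genes, Fabp7 against the olfactory bulb markers and Chrdl1 against the leptomeningeal markers. The points rise for Gjb6 (r = 0.80), Fabp7 (0.68) and Chrdl1 (0.83) and fall for Aqp4 (-0.69), with grey points for vehicle, red for fluoxetine and blue for lithium.

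Marker lists of neighbouring tissue moved with members too, many of them the same ones that were related to the glucocorticoid score. Every member related to the olfactory bulb score was also related to the glucocorticoid score, with the opposite sign. The relations with the different scores were not separated from each other. As above, their counts are of members alone, without the share of all genes beside them. The leptomeningeal score had a positive relation with 22 members and a negative one with 0, led by Chrdl1, a secreted antagonist of bone morphogenetic proteins (r = 0.83, rho = 0.81, each p = 1e-05, adjusted p = 0.00011 and 0.00013; r = 0.78 without the 2 farthest libraries), Lcat (0.75) and Slc7a11 (0.73). The olfactory bulb score had 3 positive relations, Fabp7 (r = 0.68, rho = 0.69, each p = 1e-05, adjusted p = 0.00011 and 0.00013; 0.65 without 2), Slc4a4 (0.54) and Gfap (0.44), and 5 negative ones, the lowest with Cpe (-0.49). The oligodendrocyte score had 0 positive and 7 negative relations, the lowest with Chrdl1 (-0.56). Scores outside these 4 had an r of similar size, computed without a p-value. With neuron markers it ran from -0.65 (Mlc1) to -0.04 (Gjb6), and with neural stem cell and radial glia markers from -0.59 (Gjb6) to 0.70 (Slc4a4). The neuron score of Het males was 0.02 to 0.13 under fluoxetine and -0.11 to -0.04 under vehicle. In WT males it was -0.06 to 0.17 and -0.10 to 0.03.

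Fitting these scores as covariates changed the drug calls. The shares of all genes called in these fits are not given here. The counts therefore cannot tell a loss in the members from a loss across all genes. With the glucocorticoid score in the model, fluoxetine over all mice kept none of its 14 calls and called 1 other member, and in Het males it called 0 in place of 11, and the log2 change of Gjb6 over all mice was -0.07 and that of Aqp4 0.10. The score itself rose with both drugs, so such a fit also takes out change that goes with treatment, and the part of these genes in the members' changes was not tested further. With the oligodendrocyte, choroid plexus and leptomeningeal scores together, the fluoxetine calls were 3 for males and 1 for females of the Het genotype, and those of lithium 0 in each. Without the 16 libraries of highest olfactory bulb score, fluoxetine over all mice called 6 members. The calls over all mice that ended were Aqp4, Atp1b2, Gfap, Ppp1r3c, Slc14a1 and Slc4a4 in both of these fits, Fabp7 and Slc7a10 with the tissue scores alone, and Clu and Cpe without the 16 libraries and also under quantile normalization. Slc7a11 was called with lithium over all mice under every one of the fits listed in the closing section, at adjusted p up to 0.00019.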

How the data were processed

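Messenger RNA from the prefrontal cortex of 60 mice was sequenced, and 1 table of 18088 genes was used. Salmon 0.11.2, R 3.6.0, DESeq2 1.19.11 and the build GRCm38 appear, without roles, in the submitters' processing notes. The deposited values are a signal, normalized gene counts. All of them (100%, tolerance 0.001 of a read) came out as whole reads over a library-wide size factor (0.818 to 1.07), so reads could be recovered. Gene positions came from GENCODE M21, promoters from RefSeq.

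The 17807 genes reaching 10 in 5 or more libraries were fitted as log2(value + 1) in limma 3.58.1 (R 4.3.3, trended variance) with 1 mean for each of 12 groups, and fold changes, being on the log2(value + 1) scale, are too small for low genes. Calls are at an adjusted p under 0.05 (Benjamini-Hochberg over all genes tested). A drug comparison over all mice averages the 4 differences within genotype and sex. Alternatives were edgeR 4.0.16 and DESeq2 1.42.0 on the recovered reads, other scalings, filters, covariates, a replicate block and each library left out. The scripts were tested on simulated data. Depth was 24.1 to 31.6 M reads.

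The members and lists were chosen with earlier results of these data known. All members are accounted for; values by library go to called members, at most the 6 with the smallest adjusted p per comparison, with ranges or fold changes for the rest. Up to 4 called genes with the smallest adjusted p are named from each other list, and the 3 members most and least like the median of the others. Genes named beyond these (Lcat and Slc7a11 among the score relations, for example) were chosen after their values were seen. Replicate numbers did not pair the libraries: samples with the same number in different groups had a median correlation of deviations of 0.001, against -0.002 for other numbers.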

Additional observations from a re-analysis of the deposited data

Results flagged for a closer look

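In each group of 5, a library was singled out where its gap to the nearest other library exceeded 0.71 of the group's range. Of 288 such tests, over 24 genes in 12 groups, 23 met this, where chance gives about 1 in 20. WT vehicle male replicate 5 was the highest of its group for 6 genes: Clu (16657 normalized counts), Cpe (66290), F3 (1211), S100b (3227), Slc7a11 (2839) and Sparcl1 (48666). WT vehicle male replicate 2 was the highest for Fabp7, at 1603.

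Het lithium female replicate 3 was the highest of its group for Gfap (8148) and Serpina3n (495), replicate 1 the lowest for Aldh1l1 (1496) and replicate 4 the highest for F3 (1111). Het fluoxetine female replicate 1 was the highest for Aqp4 (4224) and Grin2c (1331). Among Het vehicle mice, female replicate 3 was the highest for Atp1b2 (12708), male replicate 5 for Gjb6 (1560.2) and male replicate 3 for Ppp1r3g (241).

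WT fluoxetine male replicate 5 was the lowest of its group for Fabp7 (187) and the highest for Serpina3n (398), and WT fluoxetine female replicate 4 the lowest for Gfap (2006). WT lithium female replicate 3 was the highest for Fabp7 (3722) and WT lithium male replicate 5 for Gjb6 (2144). In WT vehicle females, replicate 1 was the highest for Grin2c (1461) and replicate 3 the lowest for Serpina3n (145).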

How the results depend on the processing

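Of the 51 member calls, edgeR, DESeq2, no filter on low values and the replicate block each kept 50 (the first 3 lost Gfap with fluoxetine, the block Sox9 between the drugs), and a pseudocount of 10 kept 51. Rescaling to equal totals kept 45, the olfactory bulb score as covariate 44, quantile normalization 42 and only the groups compared 36. The oligodendrocyte, choroid plexus and leptomeningeal scores kept 22, leaving out the 16 libraries of highest olfactory bulb score 22, and the glucocorticoid score, an alternative chosen after seeing the data, 10.

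The counts that follow are of members alone, and the shares of all genes called in the same fits are not given here. With only the groups compared, the members called were 2 for fluoxetine in Het males, 2 in Het females, and 0 for lithium in each. The olfactory bulb covariate gave 0 for genotype. The 3 scores gave 2 for genotype, 3 and 1 for fluoxetine in Het males and females, 1 for lithium in WT females and 0 for lithium in Het males and in Het females. Without the 16 libraries the counts were 0 for genotype, 6 for fluoxetine over all mice, 0 for fluoxetine and 0 for lithium in Het males, and 3 for lithium in Het females. These libraries came from 8 groups, 5 of them Het, and fewer libraries were left. Of 5 in each group, they took 3 Het vehicle males, 2 Het fluoxetine males and 1 Het lithium male. They also took 3 Het fluoxetine females and 2 Het vehicle females. The counts within Het mice in this fit therefore rest on few libraries. The glucocorticoid covariate gave 1 for fluoxetine over all mice, 6 for fluoxetine against lithium, 0 and 2 for fluoxetine in Het males and females, and 0 for lithium in Het males. DESeq2 gave 7 for fluoxetine in Het females, 7 for lithium in Het males and 2 for lithium in Het females. The cause of these changes in count was not tested, and no equal number of other libraries was left out for comparison.

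The direction of Cpe for fluoxetine in Het males reversed under quantile normalization (-0.012 on the log2 scale). Under the glucocorticoid covariate 6 other genes reversed. Fluoxetine over all mice gave Gfap 0.067, Fabp7 0.37, Aqp4 0.10, Gjb6 -0.074, Slc4a4 0.052 and Slc14a1 0.025, and Het males gave Fabp7 0.080, Aqp4 0.011 and Gjb6 -0.037.

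With 1 library left out, the members called were 12 to 16 for fluoxetine, 7 to 9 for lithium, 8 to 13 for fluoxetine against lithium, 0 to 1 for genotype, 0 to 2 for fluoxetine by genotype, 2 to 16 and 0 to 8 for fluoxetine in Het males and females, 1 to 7 and 0 to 2 for lithium in them, and 0 in the others. For fluoxetine in Het males the count was 2 without Het fluoxetine male replicate 3, 7 without replicate 4, and 6, 6 and 7 without Het vehicle male replicates 1, 2 and 4. In Het females it was 8, 2, 1, 2 and 1 without Het fluoxetine female replicates 1 to 5, and 7, 0 and 2 without Het vehicle female replicates 2, 3 and 4. For lithium in Het males it was 6 without Het lithium male replicate 2 and 1, 7, 1 and 4 without Het vehicle male replicates 1, 3, 4 and 5. In Het females it was 0 without Het lithium female replicate 3 and 0, 2, 0 and 0 without Het vehicle female replicates 1 to 4. No call changed sign in these fits.

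The replicate block gave 14 members for fluoxetine, 7 for lithium, 10 for fluoxetine against lithium, 11 and 5 for fluoxetine in Het males and females, 3 and 1 for lithium in them, 1 for genotype and 0 elsewhere. With 5 libraries in a group, small changes can be missed at this depth and spread.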
